A study of Rattus norvegicus with 3 samples.

Results

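The genes described here are 10 genes with which foam cells take up, carry and release lipid, followed in the rat common carotid artery after balloon injury. They were chosen by name from the known biology of lipid-loaded macrophages and not by a cut-off on these arrays. Earlier results of these data were known at that choice, so the counts below are no test of the set. They are 10 of 15290 genes that could be named on the arrays. Msr1, Cd36 and Trem2 are cell-surface receptors for lipid cargo and Lpl is the lipase that frees fatty acids at the cell surface. Apoe, Abca1 and Abcg1 carry cholesterol out of the cell. Fabp5, Gpnmb and Lgals3 are an intracellular fatty acid carrier and 2 proteins long used as marks of lipid-laden macrophages.

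RNA from whole common carotid arteries, taken from male Wistar rats, was labelled with Cy3 and measured on one-colour Agilent arrays. The groups were arteries 7 days after balloon injury, arteries 21 days after balloon injury and uninjured arteries, with 1 array each. Balloon injury draws an inflated catheter balloon through the artery, which strips the endothelium and stretches the wall. According to the design text each condition was studied in 2 experiments on separate rats; 1 array of each was used here, and further arrays were not analysed here.

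A foam cell forms when a macrophage, or a smooth muscle cell, takes in more lipoprotein lipid than it can release, through scavenger receptors that are not turned down as cholesterol builds up. Inside the cell the cholesteryl esters are split in the lysosome, re-esterified and stored in droplets, and surplus cholesterol is handed by ABCA1 and ABCG1 to apolipoproteins and HDL. Oxysterols made from the surplus activate the liver X receptors (LXR), which switch on Abca1, Abcg1, Apoe and other export genes. The thickened intima of the balloon-injured rat artery is known mainly as a growth of smooth muscle cells.

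With 1 array a group there is no spread between animals, so no test could be made and no p-value is given. Levels are log2 signals minus the 75th percentile of the same array, called scaled signals below, and the figure after ± is a technical SD taken from replicate spots within an array. It holds no animal-to-animal error and no difference between probes of the same gene. Among genes with several measured probes, log2 ratios differed between probes with an SD of 0.985 for day 7 over uninjured artery (105 genes). That SD was 0.575 for day 21 over uninjured artery (1783 genes) and 1.002 for day 21 over day 7 (121 genes). Members other than Lpl had 1 probe in each comparison, so this spread could not be seen for them. A difference of 2-fold or more is used only as a rule of size. A probe that was well above background on 1 array of a pair has a bound, written as "at least". There the bright signal was divided by the dim probe's own signal or, where that was lower, by the faintest signal well above background on the dim array. The uninjured and day 21 arrays shared a design and a scan, and the day 7 array had another design, another scan and a later scanner software release, so wherever day 7 enters, time and array batch cannot be told apart. Comparisons with day 7 used only probes present on both designs. The scaled signals given for single members also take the percentile over those probes, except for Cd36. Cd36 and the ratios of day 21 over uninjured artery take it over all probes of the design those arrays share. Because RNA came from whole arteries, more cells of a type and more RNA per cell cannot be told apart.

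Across the arrays, probes well above background made up 59.8% in uninjured artery, 76.5% at day 7 and 66.7% at day 21, and no spot was saturated. Macrophage markers moved with the lipid genes. Of the 14 listed, 12 were at least 2-fold higher at day 21 than in uninjured artery and none was 2-fold lower, with Cd163 not well above background on either array. Of the 9 that could be compared, 8 were at least 2-fold higher at day 7. The median log2 ratio of the macrophage markers over uninjured artery was 2.89 at day 7 and 4.04 at day 21. The summed scaled signal of these 9 shared markers, in multiples of the 75th percentile, was 5.45 in uninjured artery, 51.0 at day 7 and 122 at day 21. Smooth muscle markers went the other way, with all 8 measured at least 2-fold lower at day 21 and 3 of 4 at day 7. Endothelial markers past 2-fold and higher numbered 6 of 8 at day 21 and 6 of 6 at day 7. The part of these shifts in the results below was not tested.

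The promoters of 2 members held one of the sequences searched, and they are printed here as the stretch of DNA just before the transcription start. RefSeq gave a window for 5 of the 10 members, namely Abca1, Apoe, Cd36, Gpnmb and Trem2, on build GRCr8, and the 250 bases before each start were read 5′ to 3′ on the gene's own strand. Capitals mark the matches. The Gpnmb window lies at chr4:79340878-79341127 on the plus strand and the Abca1 window at chr5:72596474-72596723 on the minus strand.
Gpnmb: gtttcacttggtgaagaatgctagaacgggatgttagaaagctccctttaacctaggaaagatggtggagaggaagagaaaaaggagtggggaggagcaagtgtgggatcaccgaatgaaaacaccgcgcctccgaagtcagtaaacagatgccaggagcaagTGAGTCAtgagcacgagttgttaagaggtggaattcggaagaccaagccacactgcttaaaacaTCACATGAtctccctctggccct
Abca1: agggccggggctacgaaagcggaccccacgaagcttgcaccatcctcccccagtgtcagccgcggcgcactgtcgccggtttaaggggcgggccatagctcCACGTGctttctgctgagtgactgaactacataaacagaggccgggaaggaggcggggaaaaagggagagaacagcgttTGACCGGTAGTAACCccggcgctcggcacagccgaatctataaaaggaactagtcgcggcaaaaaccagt
In Gpnmb the capitals are the M-box TCACATGA, the recognition sequence of the MITF and TFE family of lysosomal and pigment-cell factors, from 23 to 16 bases before the start, and TGAGTCA, a form of the AP-1 sequence TGANTCA, from 87 to 81 bases before it. In Abca1 they are the E-box CACGTG from 149 to 144 bases before the start and, from 70 to 56 bases before it, the half-sites TGACC and TAACC set 5 bases apart, the arrangement of the LXR element known from the ABCA1 promoter.

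The M-box was found in 0.980% of 33360 promoter windows of the same length, AP-1 in 6.35% and the E-box in 5.61%, both strands searched. The half-site pair seen in Abca1 was found in 0.0450% of windows, which is 15 windows, and it was added to the search after the Abca1 window had been read. The textbook LXR repeat, AGGTCA and again AGGTCA in the same direction with 4 bases between, was in 0.00300% of windows, a single one. The PU.1 core GAGGAAGT was in 2.04%. No window of Apoe, Cd36 or Trem2 held any of these letters. A match is a stretch of letters and is not evidence that a factor binds there.

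At day 7, 8 of the 9 members with a probe on both designs were at least 2-fold higher than in uninjured artery, and none was 2-fold lower. Among all 6653 genes with a value, 20.3% were higher by 2-fold or more and 16.9% lower by as much. The median log2 ratio was 1.74 over the members and 0.12 over all genes with a value. The highest was Gpnmb, 22.0-fold, followed by Fabp5, Apoe and Trem2, and Lgals3 was the member that stayed within 2-fold. These ratios depend on the scaling of the day 7 array. With the percentile of each array taken over its whole design (own-design scaling), the median of all genes was -1.23 and the Gpnmb ratio 3.24.

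At day 21, all 10 members were at least 2-fold higher than in uninjured artery, where 10.6% of 10310 genes were, and 15.5% were at least 2-fold lower. Their median log2 ratio was 3.32, against -0.17 over all genes with a value. Gpnmb and Trem2 had the 4th and 5th highest ratios among the 9416 genes measured on both arrays, and the lowest member, Lgals3, was still 327th from the top. Set against day 7, 7 of 9 members were higher at day 21 by 2-fold or more and none was lower by that much, with a background of 10.8% of 6696 genes higher and 26.9% lower. The 2 members within 2-fold between the times were Apoe and Fabp5. With own-design scaling all 9 were past 2-fold, but so were 54.8% of all genes, counted as higher, and the median of all genes was 1.18. Measured from that median, Fabp5 was at -0.065.

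**Figure D1:**
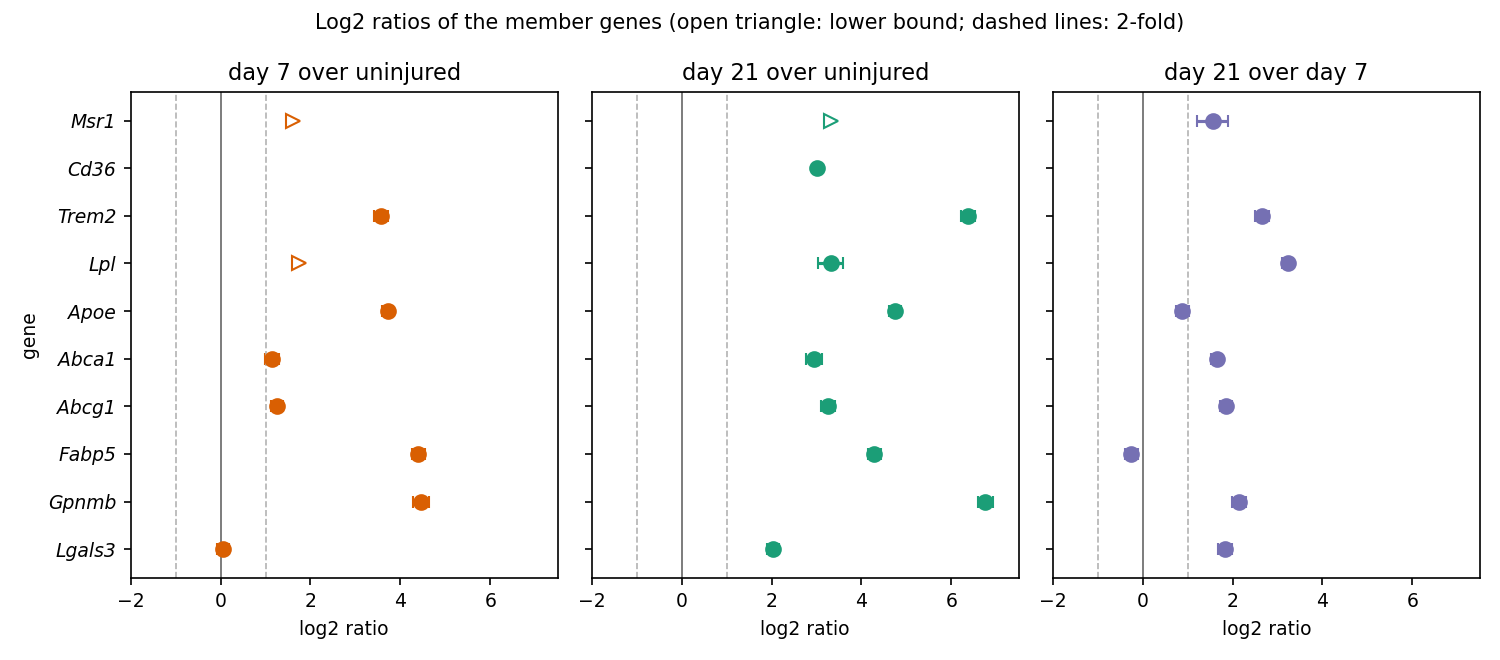
Log2 ratios of the 10 members, day 7 over uninjured, day 21 over uninjured and day 21 over day 7. Filled circles are measured ratios with the technical SD as bars, open triangles are lower bounds, and dashed lines mark 2-fold. At day 21 all 10 members lie to the right of the 2-fold line, and Cd36 has no value in the panels with day 7.

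Of the lipid uptake genes, Msr1 encodes the class A macrophage scavenger receptor, which binds modified LDL. Its scaled signal was -4.54 in uninjured artery, where it was not well above background, -2.31 at day 7 and -0.75 at day 21. The uninjured artery was the lowest and day 21 the highest. Its log2 ratio over uninjured artery was at least 1.61 at day 7 and at least 3.33 at day 21. With normexp background correction these bounds were 0.37 and 1.16. Between the 2 times it was 2.95-fold higher at day 21 (log2 ratio 1.56 ± 0.34), against 0.36 with normexp, which is under 2-fold.

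Cd36 encodes a class B scavenger receptor that also brings long-chain fatty acids into the cell. It had no probe common to both designs, so its day 7 level was not compared with the others. On the design of the other arrays its probe was spotted 10 times, and those spots ran between 1552 and 1969 intensity units at day 21, against 73.6 and 91.5 in uninjured artery, before scaling. The spots of the 2 arrays did not overlap. With the percentile over all probes of that design, the scaled signals were 3.69 at day 21 and 0.69 in uninjured artery. They are not on the scale of the levels given for the other members. On the scale used for Cd36, Abcg1 was at 4.84 at day 21 and 1.58 in uninjured artery. The ratio was 8.03-fold (log2 ratio 3.01 ± 0.05), with the smallest technical SD of any member in that comparison.

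Trem2 encodes a receptor on macrophages that binds lipids and apolipoproteins and signals through the adaptor Tyrobp. Its scaled signal was -0.37 in uninjured artery, 3.20 at day 7 and 5.86 at day 21. The level was higher at each later time. The ratio was 11.9-fold at day 7 (log2 ratio 3.57 ± 0.16) and 82.9-fold at day 21 (6.37 ± 0.16) over uninjured artery. At day 21 it was 6.31-fold higher than at day 7 (2.66 ± 0.15). Its adaptor Tyrobp was 4.23 ± 0.12 higher on the log2 scale at day 7 and 5.23 ± 0.13 at day 21, but only 0.85 ± 0.14 apart between the 2 times, where Trem2 was 2.66 apart.

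Lpl encodes lipoprotein lipase, which splits the triglycerides of lipoproteins. Its probe on both designs gave 10 spots between 2.16 and 5.42 intensity units in uninjured artery, which was not well above background, 9 spots between 44.6 and 65.7 at day 7 and 8 spots between 748 and 818 at day 21. These are signals before scaling, and the scaled values were -5.08, -2.18 and 1.04 in the same order. The Lpl signal at day 7 was at least 3.33-fold that of uninjured artery, a bound of 1.74 on the log2 scale that was 0.21 with normexp. At day 21 it was 9.34-fold that of day 7 (log2 ratio 3.22 ± 0.12). That last ratio was the 6th highest of 5633 genes. Between day 21 and uninjured artery, the probe with the higher mean signal, 1 spot on each array, gave 9.95-fold (3.31 ± 0.27), while the many-spot probe gave at least 34.7-fold. The probes of Lpl shared their direction and not their size.

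**Figure D2:**
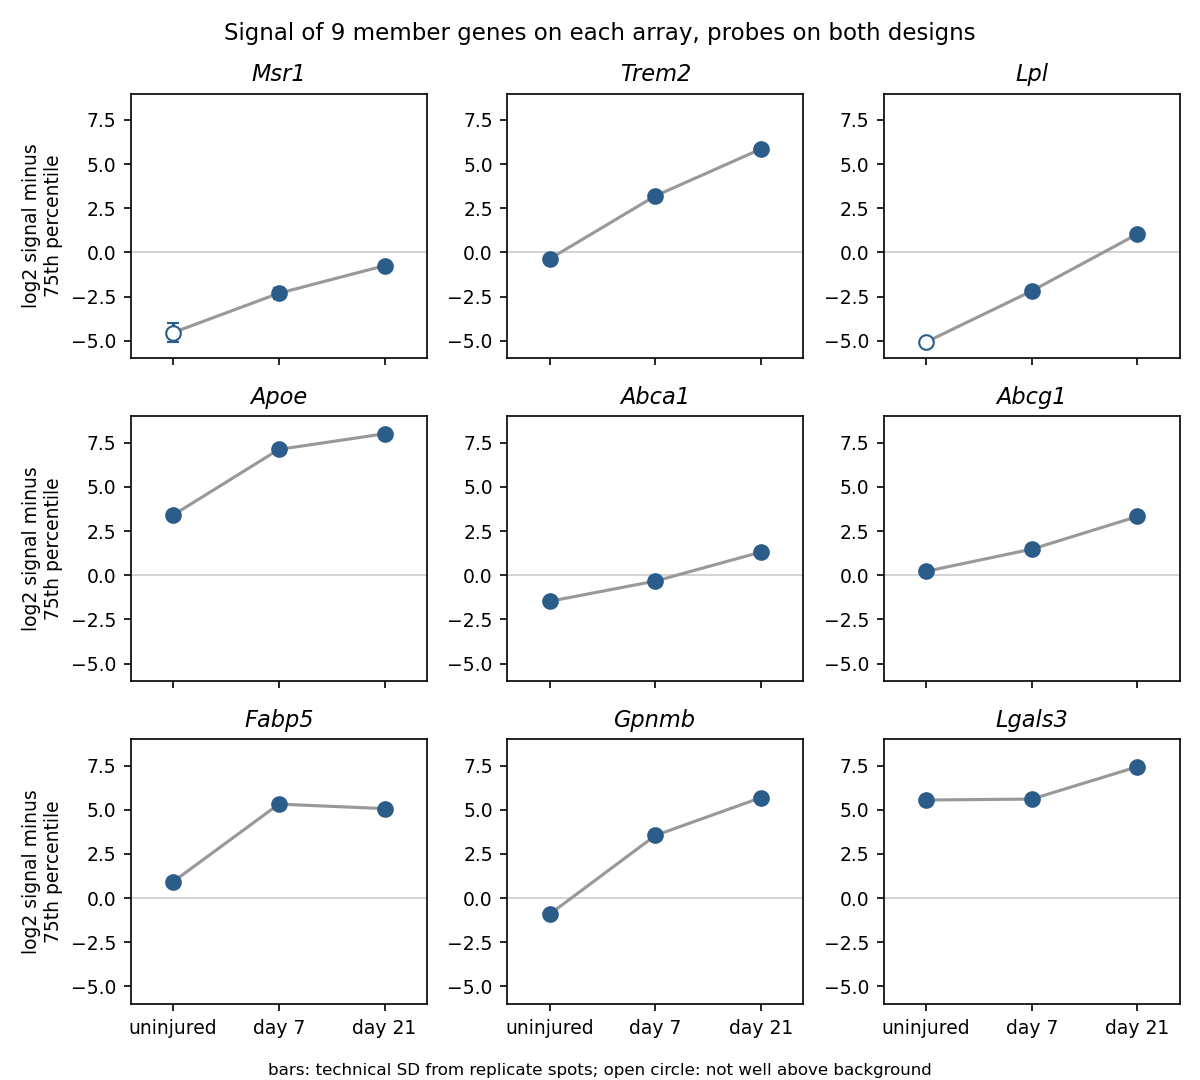
Scaled log2 signal of the 9 members with a probe on both designs, in uninjured artery, at day 7 and at day 21. Circles are single arrays, bars the technical SD and open circles signals not well above background. Trem2, Gpnmb, Lpl and Msr1 climb at each time, Apoe and Fabp5 have most of their difference by day 7 on this scaling, and Lgals3 stands higher at day 21 than at both other points.

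Of the cholesterol export genes, Apoe encodes apolipoprotein E, which macrophages secrete with cholesterol and which lets lipoprotein receptors bind the particle. Its scaled signal was 3.41 in uninjured artery, 7.13 at day 7 and 8.01 at day 21. Uninjured artery was the lowest and day 21 the highest. Apoe was 13.2-fold higher at day 7 (log2 ratio 3.72 ± 0.13) and 26.9-fold higher at day 21 (4.75 ± 0.13) than in uninjured artery. Between the times it was 1.85-fold higher at day 21 (0.89 ± 0.14). That log2 ratio passed 1 under median scaling (1.35), cyclic loess (1.08), normexp (1.26) and own-design scaling (2.26). It stayed under 1 after quantile normalization (0.77) and in the authors' deposited table (0.82). Measured from the median of all genes it was 1.07, ranging from 0.07 in the deposited table to 1.54 with normexp.

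Abca1 encodes the transporter that loads cholesterol onto lipid-poor apolipoprotein A-I. Its scaled signal was -1.47 in uninjured artery, -0.33 at day 7 and 1.31 at day 21. Its ratio over uninjured artery was 2.21-fold at day 7 (log2 ratio 1.14 ± 0.16), just past the 2-fold mark, and 7.65-fold at day 21 (2.94 ± 0.18). Abcg1, which moves cholesterol onto HDL, followed the same course, with scaled signals of 0.22, 1.48 and 3.33. It was 2.39-fold higher at day 7 (1.25 ± 0.14) and 9.54-fold higher at day 21 (3.25 ± 0.16) than in uninjured artery. Both transporters had the larger part of their log2 difference between day 7 and day 21, 3.13-fold for Abca1 and 3.61-fold for Abcg1. Their day 7 ratios were under 2-fold with median scaling and in the authors' deposited table, where they were 0.35 and 0.51 on the log2 scale, and the Abca1 ratio was below 0 with own-design scaling. Measured from the median of all genes, Abca1 lay between 0.70 with normexp background correction and 1.25 with cyclic loess, and Abcg1 between 1.23 and 1.48.

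Of the carrier and marker genes, Fabp5 encodes a cytosolic protein that binds fatty acids. Its scaled signal was 0.93 in uninjured artery, 5.33 at day 7 and 5.07 at day 21. Both injured arteries were far above the uninjured one. It was 21.0-fold higher at day 7 (log2 ratio 4.39 ± 0.14) and 19.5-fold higher at day 21 (4.29 ± 0.14) than in uninjured artery. The difference between the times was -0.25 ± 0.15, and its sign turned with the scaling, ranging from -0.26 to 1.12.

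Gpnmb encodes a membrane glycoprotein of lysosome-rich cells, including macrophages loaded with lipid, and its promoter window holds the M-box printed above. Its scaled signal was -0.91 in uninjured artery, 3.55 at day 7 and 5.69 at day 21. It was 22.0-fold higher at day 7 (log2 ratio 4.46 ± 0.17) and 108-fold higher at day 21 (6.75 ± 0.17) than in uninjured artery, and 4.42-fold higher at day 21 than at day 7 (2.15 ± 0.16). On the probes of both designs alone the day 21 ratio over uninjured artery was 6.60.

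Lgals3 encodes galectin-3, a sugar-binding protein also known as the macrophage antigen Mac-2. It was well above background on every array, with a scaled signal of 5.56 in uninjured artery, 5.61 at day 7 and 7.44 at day 21. On this scaling the day 7 and uninjured arteries differed by less than the technical SD (log2 ratio 0.05 ± 0.13), a ratio that ranged from -1.17 to 0.59 over other processing. At day 21 it was 4.09-fold higher than in uninjured artery (2.03 ± 0.13) and 3.56-fold higher than at day 7 (1.83 ± 0.15).

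**Figure D3:**
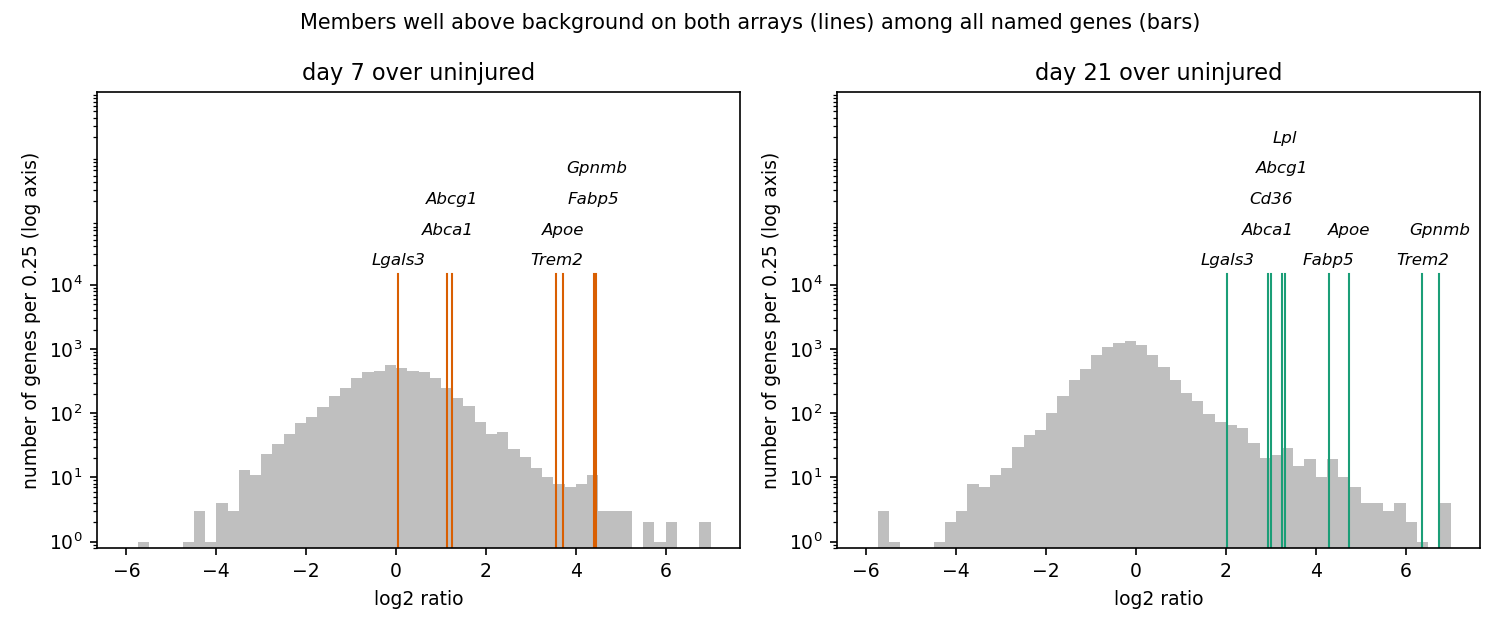
Histograms of log2 ratios over all named genes well above background on both arrays, for day 7 and day 21 over uninjured (log count axis), with the members as vertical lines and more extreme ratios placed in the end bars. At day 21 every marked member lies at 2.03 or above, while the median of all genes is -0.20. At day 7 Lgals3 lies in the middle of the distribution at 0.05.

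The members were also compared with other genes of lipid handling, taken from lists drawn up by role. The list counts stand against 10.6% of all genes at least 2-fold higher and 15.5% lower at day 21 than in uninjured artery. At day 7 these shares were 20.3% and 16.9%. Of 19 other scavenger and lipoprotein receptors, 11 had a value at day 21, of which 4 were at least 2-fold higher than in uninjured artery and none was 2-fold lower, with a median log2 ratio of 0.78. Cd68 (3.92) and Mrc1 (3.78), which are macrophage proteins and also stand in the macrophage list, led it, followed by Scarb1 (2.22), the HDL receptor, and Colec12 (1.64), a collectin scavenger receptor. Lrp1 (0.88), Mertk (0.78), Axl (-0.05) and Vldlr (-0.56), an uptake receptor of lipoprotein remnants, 2 receptors for dying cells and the VLDL receptor, stayed within 2-fold. For Lrp1, another probe had a ratio of the opposite sign. Olr1 and Cd163 were not well above background on either array. At day 7, 1 of 8 was at least 2-fold higher, namely Scarb1 (2.10 ± 0.18), and none was 2-fold lower.

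Beside Abca1 and Abcg1, the list of LXR and PPAR receptors and cholesterol export genes moved in both directions. At day 21, 5 of 17 were at least 2-fold higher and 3 were at least 2-fold lower than in uninjured artery, with a median of 0.27. The higher genes included Ch25h (4.27), which makes 25-hydroxycholesterol, Pltp (3.20), the phospholipid transfer protein, and Npc2 (1.79), which carries cholesterol out of the lysosome. The lower ones included Lcat (-1.84), which esterifies cholesterol on HDL, and Apoc2 (-1.25), the activator of lipoprotein lipase. The LXR genes themselves, Nr1h3 (0.27 ± 0.14) and Nr1h2 (-0.01 ± 0.14), were within 2-fold, and Pparg was at least 2.68-fold higher. At day 7, 3 of 12 were higher, Ch25h, Pltp and Apoc1, and Mylip (-1.03), a ubiquitin ligase that LXR switches on, was lower.

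**Figure D4:**
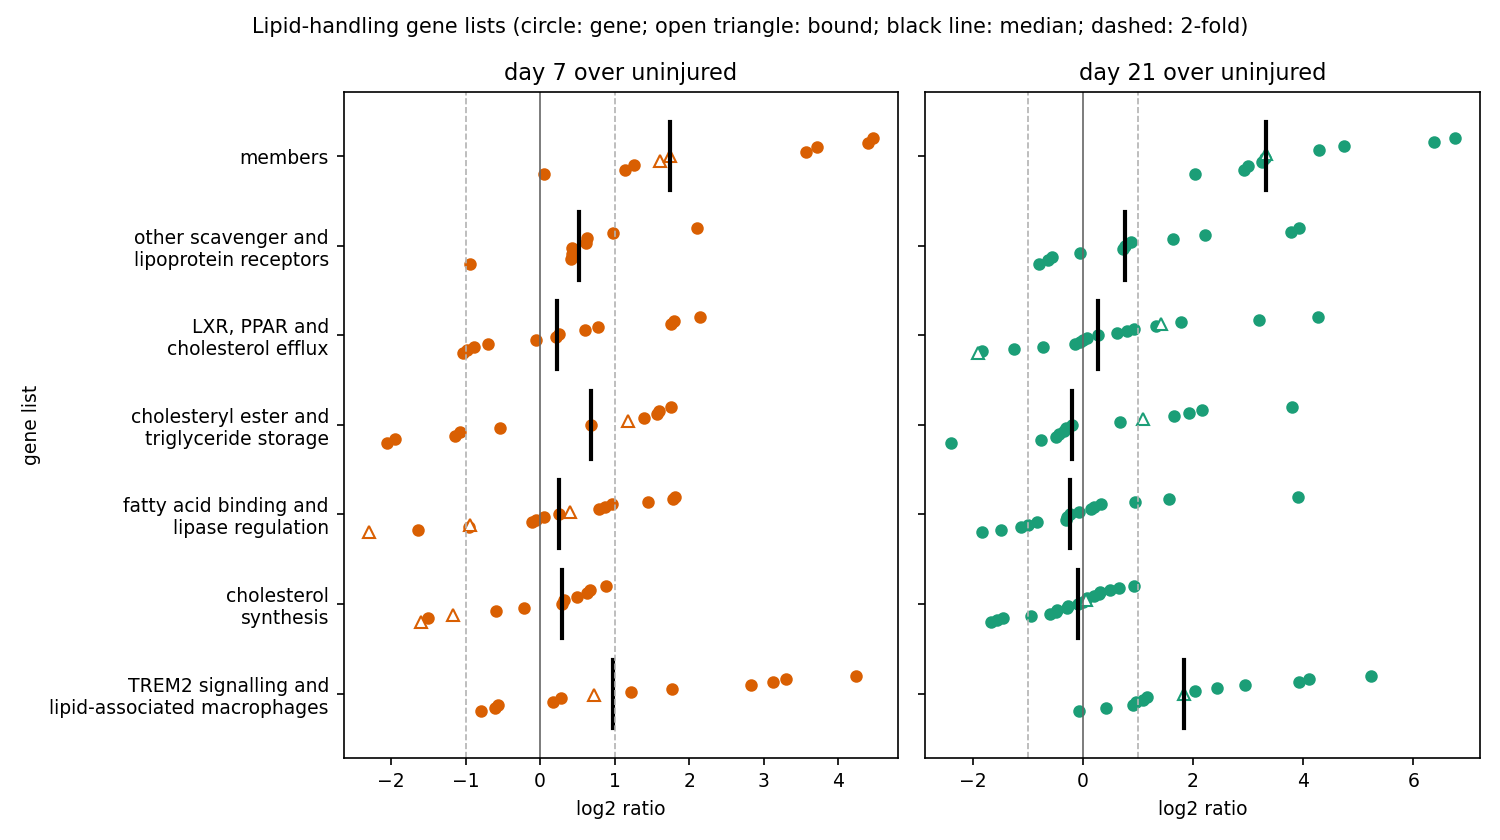
Log2 ratios of the members and of 6 lists of lipid-handling genes, day 7 over uninjured on the left and day 21 over uninjured on the right. Circles are genes, open triangles bounds, black lines medians and dashed lines 2-fold. The member medians of 1.74 and 3.32 lie right of the medians of the other lists shown. The medians of the cholesterol synthesis list are 0.30 and -0.09. Cell type markers are not shown. Macrophage markers had higher medians than the members, 2.89 at day 7 and 4.04 at day 21. Endothelial (1.86) and Schwann cell (4.10) medians were also higher than the members' at day 7, and lower at day 21 (2.18 and -0.84).

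Genes that store and split lipid droplets were also mixed. At day 21, 5 of 13 were at least 2-fold higher and 1 was at least 2-fold lower than in uninjured artery, with a median of -0.19. Lipa, the lysosomal acid lipase that frees cholesterol from taken-up lipoprotein, was 13.9-fold higher (3.80 ± 0.16), and G0s2 (2.16), Dgat2 (1.94) and Mgll (1.65), genes of triglyceride turnover, were also higher. Soat1, which esterifies cholesterol for storage, was at least 2.14-fold higher. Cidea, a droplet protein of fat cells, was lower (-2.40). At day 7, 5 of 11 were higher and 4 were lower, with Lipa at 1.57, Cidea at -2.05 and Acsl4, an acyl-CoA synthetase, at -1.95.

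Among fatty acid binding, transport and lipase-regulating genes, Fabp5 was accompanied by Fabp4, which both macrophages and fat cells use. Fabp4 was 15.0-fold higher at day 21 (3.90 ± 0.16) and 3.52-fold higher at day 7 (1.81 ± 0.15) than in uninjured artery. Gpihbp1, the endothelial protein that anchors lipoprotein lipase, was 2.95-fold higher at day 21 and 3.45-fold higher at day 7. Over the list, 2 of 15 were at least 2-fold higher and 3 were lower at day 21, and 3 of 15 were higher and 2 lower at day 7. These counts are near the shares of all genes, 10.6% higher and 15.5% lower at day 21 and 20.3% and 16.9% at day 7. Adipocyte markers, which hold Fabp4, summed to 79.5 times the 75th percentile at day 21, against 21.9 in uninjured artery. These sums are over all probes of the design those 2 arrays share, where the macrophage markers summed to 1374 and 35.4. On the shared probes of the macrophage sums above, the adipocyte sums were 27.4 and 7.81. Lep, Cidec and Ucp1 were not well above background on either array. Of 7 adipocyte markers, 2 were at least 2-fold higher, Fabp4 and Cfd, and 1, Cidea, was lower, with a median log2 ratio of -0.19. Fabp4 (5.20) and Cfd (5.29) had by far the highest scaled signals of the list at day 21, followed by Cidea (0.79). The higher sum at day 21 thus rests on Fabp4 and Cfd and not on the list as a whole. The part of the adipocyte markers in the result was not tested.

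Cholesterol synthesis genes gave 0 of 19 at least 2-fold higher and 3 lower at day 21, with a median of -0.09. The lower count is near the 15.5% of all genes that were 2-fold lower, while 10.6% were higher. The median of all genes was -0.17. The lower genes were Hmgcs1 (-1.66), Pmvk (-1.55) and Idi1 (-1.45), enzymes of the mevalonate pathway. At day 7 there were 0 of 11 higher and 3 lower, against 20.3% and 16.9% of all genes.

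Genes of TREM2 signalling and of lipid-associated macrophages numbered 9 of 13 past 2-fold and higher at day 21 and 6 of 12 at day 7, with none 2-fold lower and medians of 1.83 and 0.98, the second of which was 0.003 at its lowest over other processing. Tyrobp (5.23), the lysosomal protease Ctsz (4.11) and Capg (3.93), which caps actin filaments, led at day 21. The kinase Syk, which acts below Tyrobp, was 5.38-fold higher at day 21 (2.43 ± 0.29) and 3.40-fold higher at day 7 (1.77 ± 0.31). The lysosomal protease Ctsd had a ratio of 2.04 at day 21, against -0.57 at day 7, while Spp1, osteopontin, was alike at both times (2.94 and 2.83).

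The genes whose ratios lay nearest to the members' were found by distance in log2 units from the median pair of the 7 members measured in both comparisons, 3.57 at day 7 and 4.14 at day 21 over uninjured artery on the probes of both designs. Among 5065 candidates the nearest were C1h16orf54 at 0.12, Myo1g at 0.13, Igsf6 at 0.37, Hk3 at 0.39 and Pla2g7 at 0.49. Pla2g7, the farthest of these, encodes the lipoprotein-associated phospholipase A2. The roles of the nearer genes were not examined, so no lipid theme can be read from this list. Both comparisons share the uninjured array, and the members themselves were spread wider, from 0.49 for Apoe to 4.18 for Lgals3.

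**Figure D5:**
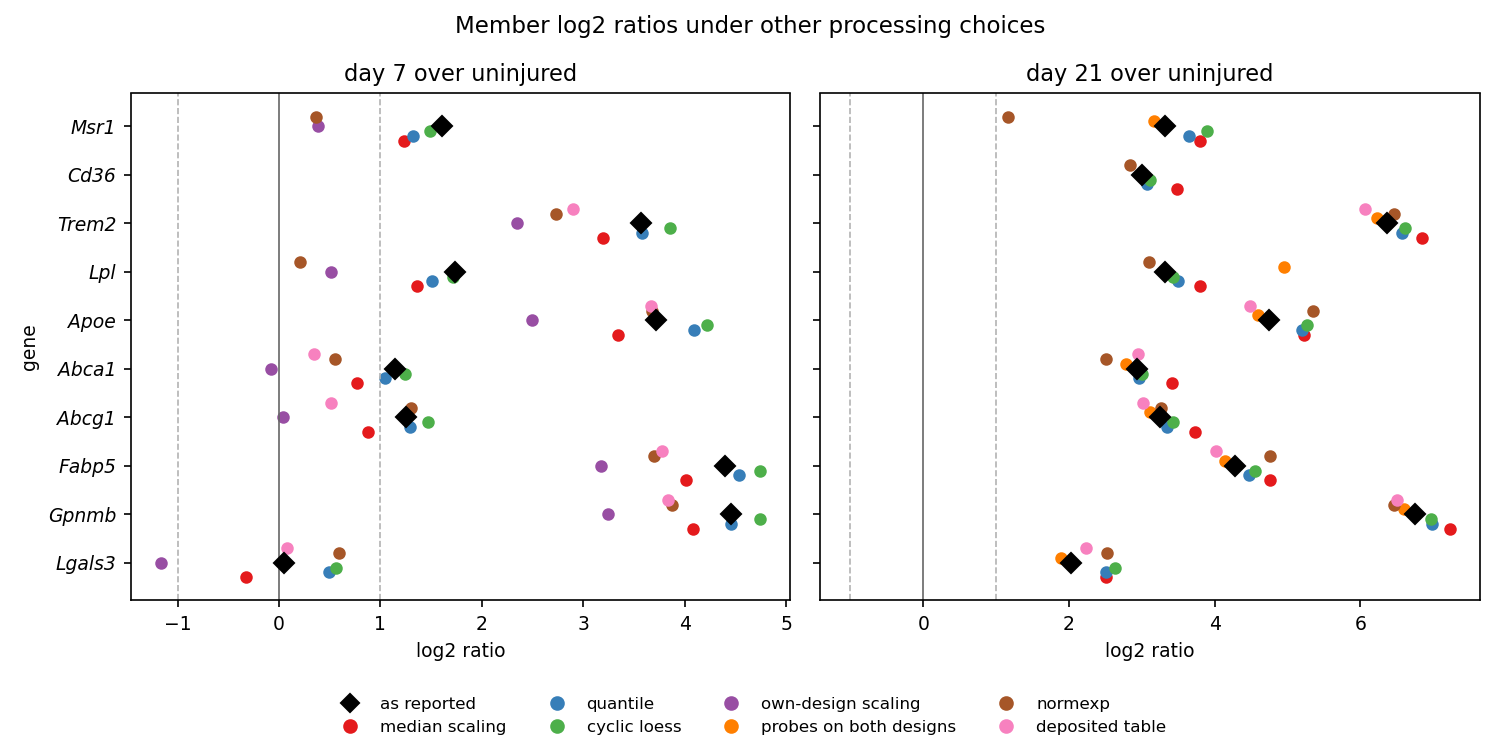
Log2 ratios of the members under other processing choices, day 7 over uninjured on the left and day 21 over uninjured on the right. Black diamonds are the values reported and coloured circles the alternatives. All day 21 values lie above 1, while at day 7 the values of Abca1, Abcg1, Lpl, Msr1 and Lgals3 fall on both sides of the 2-fold line or below it.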

How the data were processed

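The data were 3 scanner files and 1 table of values. Per the file headers, each spot's intensity came from Agilent Feature Extraction 11.0.1.1 on the day 7 array and 10.7.3.1 on the others, the release that the submitters' processing notes name. Background had been subtracted and arrays had not been normalized against each other. The authors' deposited table holds log2 values; their normalization, in the sources used here, is not given.

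Outlier spots and control spots were left out, spots of a probe averaged as log2, and the 75th percentile subtracted, over 10583 shared probes for comparisons with day 7 and 40989 probes of the common design for day 21 over uninjured. Names came from RefSeq by accession without version (8028 shared probes, 75.9%; 17496 probes of the common design, 42.7%), and the probe with the highest mean signal stood for a gene. The number of arrays limits the precision. The rule named all 10 members, up to 3 of the highest and 3 of the lowest genes past 2-fold of each list, and the 5 genes nearest to the members; other list genes were picked after their values were seen. Some list genes are not reported here. The members and lists were chosen with earlier results of these data known. Alternatives used limma 3.58.1 in R 4.3.3 (normexp offset 50, on the median signal because the files hold no mean signal), Python 3.11.15 with pandas 2.3.3 and numpy 2.4.6. The script was tested on simulated data.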

Additional observations from a re-analysis of the deposited data

How the results depend on the processing

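No paired analysis was possible because each group has 1 array. All 10 members stayed at least 2-fold higher at day 21 than in uninjured artery, or all that had a value (9 on probes of both designs, 7 in the authors' deposited table), while their median log2 ratio, 3.32, was 3.80 under median scaling, 3.57 after quantile normalization, 3.66 after cyclic loess, 4.14 on probes of both designs, 3.77 with the mean of all probes, 3.62 with no filter on dim probes and 4.01 in the deposited table. For day 7 over uninjured artery, the count of 8 became 6 under median scaling, 4 with own-design scaling, 5 with normexp and 4 of 7 in the deposited table. The median, 1.74, was 1.36, 0.52, 1.301 and 2.90 in the same order, 1.504 after quantile normalization and 2.89 with no filter. Own-design scaling put Abca1 at -0.076, where the median of all genes was -1.23. For day 21 over day 7 the count of 7 ranged from 5, of 7 in the deposited table, to 9 with own-design scaling, and the median of 1.83 was 2.29 under median scaling, 2.02 after cyclic loess, 3.20 with own-design scaling, 1.53 with normexp and 2.51 in the deposited table. The split of all genes past 2-fold also moved, counted here over genes well above background on both arrays and without the bounds that the percentages of the report include (no filter takes every named gene, and the deposited table those it lists). At day 7, 845 of 5247 genes were higher and 853 lower, against 180 and 3118 with own-design scaling, 509 and 1427 with median scaling, 338 and 510 with normexp, 1830 and 1539 with no filter and 470 and 1733 in the deposited table. At day 21 over uninjured, 858 and 1292 of 9416 genes became 1643 and 489 under median scaling, 985 and 787 after quantile normalization, 1128 and 611 after cyclic loess, 789 and 265 with normexp, 1347 and 3166 with no filter, 496 and 943 on probes of both designs and 590 and 389 in the deposited table. For day 21 over day 7, 605 and 1125 of 5633 genes became 1214 and 630, 946 and 661, and 871 and 672 with median, quantile and loess scaling, 431 and 755 with normexp, 999 and 2084 with no filter, 3244 and 162 with own-design scaling and 1726 and 264 in the deposited table. The day 21 medians of the list of other receptors and of the storage, fatty acid and cholesterol synthesis lists changed sign over the alternatives, ranging from -0.05 to 1.24, -0.44 to 0.29, -0.46 to 0.25 and -0.28 to 0.30. The day 7 medians of these lists and of the LXR, PPAR and cholesterol efflux list also changed sign, with lowest values of -0.69, -1.15, -1.07, -0.92 and -0.99, and the median of the TREM2 list ranged from 0.003 to 1.69. The cause was not tested. Msr1 and Lpl in uninjured artery are limited by signal over background.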

Other observations

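Cd36 in the authors' deposited table is named by a probe present only on the day 7 design, although the table gives a value for every array. In the authors' deposited table it stands at 7.92 for uninjured artery, 10.29 for day 7 and 10.79 for day 21 on the log2 scale. The day 7 array holds 2 probes of the Cd36 accession, at 2326 and 94.5 intensity units, and the log2 of their mean is 10.24, while the naming probe alone is at 6.56. The uninjured and day 21 arrays hold a different Cd36 probe, at 1745 units at day 21, against 79.6 in uninjured artery. The values of the deposited table for Cd36 thus come from different oligos at day 7 than on the other arrays. Over 3745 rows of the table whose naming probe is not on the array, the deposited values correlated with the log2 mean intensity of the accession's probes with r = 0.987 across genes at day 21 and r = 0.980 in uninjured artery. Genes are not independent replicates, and these correlations are given as a description.

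Schwann cell markers were at least 2-fold higher at day 7 than in uninjured artery for 4 of 5, with a median log2 ratio of 4.10, and for 0 of 6 at day 21, with a median of -0.84. Skeletal muscle markers were at least 2-fold lower at day 21 for 4 of 6. These lists share no member with the lipid genes.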
